A study of Homo sapiens with 3 samples.

Results

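The 10 genes described here were MET, SMO, FZD1, LPAR1, PTN, L1CAM, CD82, BRMS1, KISS1 and STRAP. They were taken as a set because they are known from earlier work as targets or a partner of the metastasis suppressor protein Nm23-H1, or as metastasis suppressors in their own right. The choice was made with earlier results of these data known. All probe sets annotated to them, 20 of the 22283 on the array, were followed. The genes were 10 of the 11963 with a probe set of their own. Transcripts were measured in CAL 27, a line of poorly differentiated squamous carcinoma cells from the tongue, on 1 Affymetrix array for each of 3 stable transfectants. The vector cells carried the plasmid pEGFPC1, which makes EGFP alone. The nm23-H1 cells made a GFP fusion of Nm23-H1, and the nm23-H2 cells carried pEGFPC1 with nm23-H2. The design text describes the vector and nm23-H1 RNA as coming from transfected clones and the vector RNA from 1 clone, and it does not mention the nm23-H2 cells.

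With 1 array for each construct, differences could not be tested against replicates and are given without p-values. The construct and the transfected line that carries it cannot be told apart. A lower signal in RNA from a whole culture also cannot separate fewer expressing cells from less RNA in each cell. NME1, the gene of Nm23-H1, gave 1519 signal units with vector, 2379 with nm23-H1 and 1132 with nm23-H2. The probe set of NME2, which also covers a read-through transcript with NME1, gave 2272, 2323 and 4845 on the same arrays. NME1 was thus 1.57-fold above vector with nm23-H1, short of 2-fold, and NME2 was 2.13-fold above vector with nm23-H2. By 1 probe set per gene, all 13 annotated keratinocyte markers of 16 listed were above background on each array. Of 9 fibroblast markers, 1, 2 and 2 were with vector, nm23-H1 and nm23-H2, or 4 by any probe set on any array. Of 8 annotated endothelial and blood markers, 3, 4 and 1 were. For 4 of the 13 keratinocyte markers the nm23-H2 signal was 2-fold or more above the nm23-H1 signal, and for 0 the reverse held. They were KRT16 (2.86-fold), ITGB4 (2.66), LAMB3 (2.19) and SFN (2.05). The other ITGB4 probe sets fell short of 2-fold. Of all measured genes, 3.74% lay that far on the same side.

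Nm23-H1 is a nucleoside diphosphate kinase whose gene was the first metastasis suppressor to be named, and forced expression of it in several tumour lines lowers cell motility. Genes of receptors and ligands that drive motility, among them MET, SMO, FZD1, LPAR1, PTN and L1CAM, have been reported to be lower where Nm23-H1 is high. CD82, BRMS1 and KISS1 are metastasis suppressor genes of other kinds, and STRAP encodes a protein known to bind Nm23-H1.

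Signals are given after each array was scaled to a common trimmed mean. A floor of 28.3 signal units, the median of all probe sets on the 3 arrays, was taken as background, and differences are on the log2 scale after lower values were raised to it. Where 1 of the arrays lay at the floor, the difference is a bound. Of the 20 probe sets, 9 were above the floor on all 3 arrays, 6 on none, and the other 5 on some. The measurable error was how far 2 probe sets of a gene differed from each other. As an SD of the log2 difference it was 0.32 between nm23-H1 and vector, 0.35 between nm23-H2 and vector and 0.39 between the transfectants. It does not cover cultures, clones or hybridisations.

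**Figure D1:**
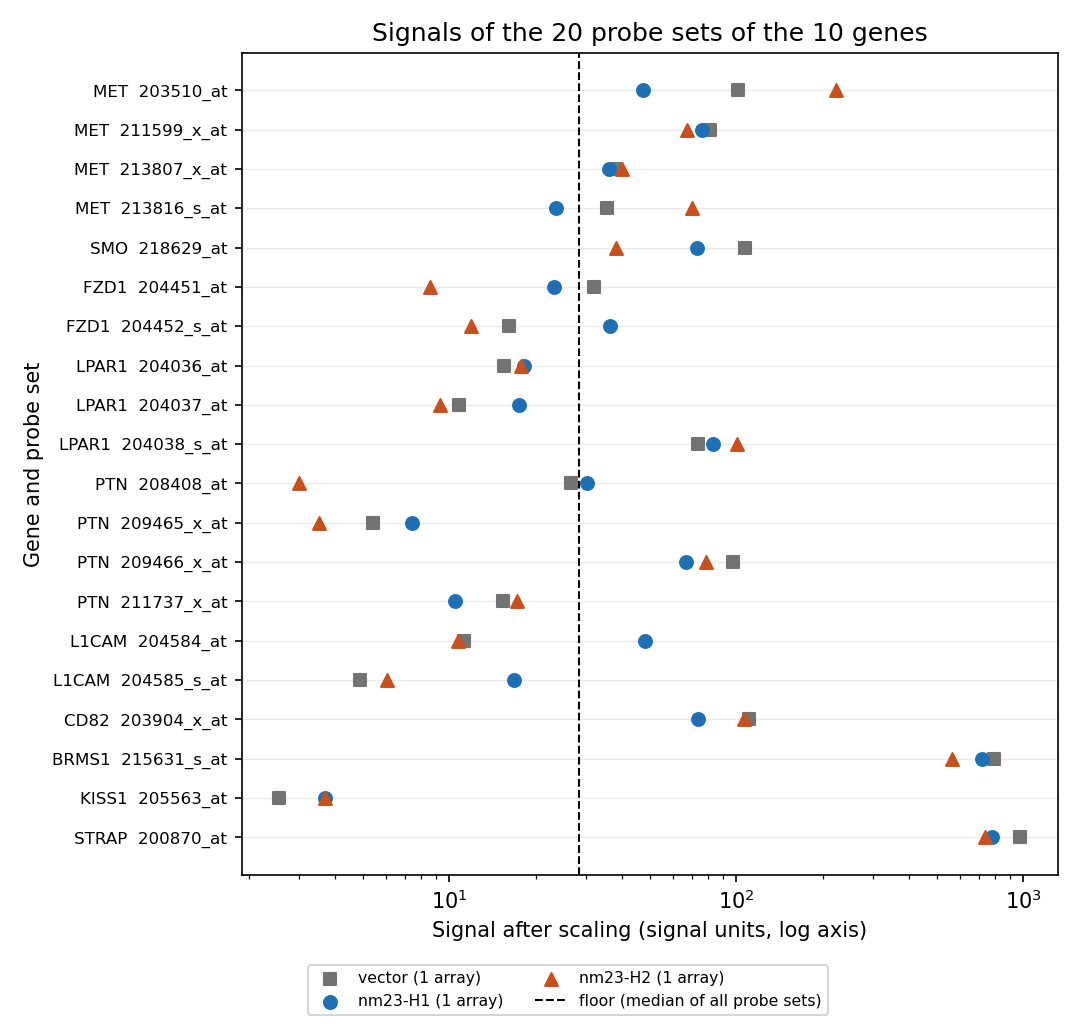
Scaled signal (signal units, log axis) of the 20 probe sets of the 10 genes on the vector, nm23-H1 and nm23-H2 arrays, 1 point per array. The dashed line is the floor of 28.3. The 3 points of MET 203510_at lie far apart, those of STRAP and BRMS1 lie close together, and those of KISS1 all lie below the floor.

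At the settings described, MET and SMO were the members that differed by 2-fold or more in any comparison. Of the 9 members above the floor on at least 1 array, 1 was 2-fold or more from vector with nm23-H1, where 3.88% of all 8000 genes measured that way were (2.16% higher, 1.71% lower). It was MET, which was lower. With nm23-H2, 2 of the 9 were, MET on the higher side and SMO on the lower, where 7.16% of all genes were (3.54% higher, 3.62% lower). Between the transfectants, 1 of the 9, again MET, was lower with nm23-H1, where 7.47% of all genes were 2-fold different (3.74% higher, 3.74% lower). Counts of 1 or 2 among 9 genes are too small to set the members apart from these shares. The median over the 9 members was -0.15 with nm23-H1 and 0 with nm23-H2, both relative to vector, and 0.09 between the transfectants. The medians over all measured genes were 0, -0.06 and 0.08. With nm23-H2, 2 of the 9 members were above vector, 4 below, and 3 at 0 because both arrays lay at the floor. The members' median of 0.09 between the transfectants is the value of PTN, a bound. The comparisons with vector share the vector array. FZD1, PTN and L1CAM entered the 9 through the nm23-H1 array alone, so a higher value on that array was built in, and the counts and medians are a description only.

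MET encodes the receptor tyrosine kinase for hepatocyte growth factor, which drives scattering and invasion of epithelial cells. It lies on chromosome 7 (116672196 to 116798377 in assembly GRCh38.p14). Its probe set 203510_at gave 102 signal units with vector, 47.4 with nm23-H1 and 223 with nm23-H2. The nm23-H1 array was thus the lowest and the nm23-H2 array the highest. Relative to vector the level was 2.14-fold lower with nm23-H1 (-1.10) and 2.20-fold higher with nm23-H2 (1.14). The transfectants differed by 4.71-fold (-2.24 for nm23-H1 minus nm23-H2). Each of these was more than the probe set SD. Among the 1000 probe sets nearest to it in mean signal and above the floor on both arrays, the middle 95% of differences from vector ran from -0.80 to 0.93 with nm23-H1 and from -1.10 to 1.22 with nm23-H2. Between the transfectants they ran from -1.24 to 1.23. Probe set 203510_at lay outside the first and the last of these ranges and inside the second.

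The 4 MET probe sets did not give the same result. Probe set 213816_s_at had the same order of arrays, with 35.3 signal units for vector, 23.6 for nm23-H1, which is under the floor, and 69.9 for nm23-H2. Its differences were -0.32 (a bound), 0.99 and -1.3 (a bound), and 0.99 lay outside the middle 95% of probe sets of like signal (-0.96 to 0.89). The remaining MET probe sets carry the suffix _x_at, which marks probes that can bind other transcripts too. Probe set 211599_x_at gave 81.2, 75.8 and 67.1 signal units for vector, nm23-H1 and nm23-H2, and 213807_x_at gave 38.1, 36.0 and 40.0. Their differences from vector lay between -0.28 and 0.07, all within the probe set SD. Over all 4 probe sets the mean difference from vector was -0.40 with nm23-H1 (SD 0.48, n = 4 probe sets) and 0.48 with nm23-H2 (SD 0.69). Between the transfectants it was -0.88 (SD 1.11), so the 2-fold calls rest on which probe sets are used. The nm23-H1 difference was also short of 2-fold with the values as deposited (-0.99), a floor at the 70th percentile (-0.62), and 16 added to every signal (-0.89).

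The nearest measured genes beside MET on chromosome 7 were CAV1, caveolin, with 0.28 for nm23-H1 and 0.58 for nm23-H2 against vector, and CAPZA2, an actin capping subunit, with -0.13 and -0.73. Over the 20 nearest measured genes, 10 on each side, the median was -0.13 for nm23-H1 and -0.10 for nm23-H2 against vector, and 0 and 2 of them were at least 2-fold different. These medians were close to 0, on the same side as MET with nm23-H1 and on the opposite side with nm23-H2.

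The list of other genes of hepatocyte growth factor signalling (ligand, activating protease, inhibitors, adaptors) held 14 measured genes of 16, counted like the members by 1 probe set per gene. Of these, 2 were at least 2-fold higher with nm23-H1 than with vector and 0 lower, and 0 were 2-fold different with nm23-H2. STAT3, at 0.51 with nm23-H2 against vector, gave 1.45 by its other probe set. Pooled over the 11 lists around the members, 6.72%, 10.4% and 8.21% of 134 measured genes were at least 2-fold different in the 3 comparisons. The shares of all genes were 3.88%, 7.16% and 7.47%. The lists were chosen with earlier results of these data known, and the pooled shares were not tested. Counts in single lists are too small to set a list apart. HGF, the ligand of MET, gave 36.4 signal units with vector, 74.2 with nm23-H1 and 50.6 with nm23-H2 by 1 probe set, 2.04-fold higher with nm23-H1. Its other 4 probe sets were below the floor on all arrays. SOS1, an exchange factor that activates Ras, was at least 2.37-fold higher with nm23-H1 (67.1 signal units) than with vector or nm23-H2, both below the floor. Its other probe set was below the floor throughout. SOS1 was counted as measured through the nm23-H1 array alone, so a higher value on that array was built in. The same holds for any list gene above the floor on 1 array only.

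SMO encodes Smoothened, the membrane protein that passes on the Hedgehog signal when the receptor Patched releases it. It lies on chromosome 7 (129188633 to 129213545) and had 1 probe set, with 108 signal units for vector, 72.8 for nm23-H1 and 38.1 for nm23-H2. All 3 values were above the floor, with vector the highest and nm23-H2 the lowest. Relative to vector the level was 2.82-fold lower with nm23-H2 (-1.5), outside the middle 95% of probe sets of like signal (-1.17 to 1.15). It was 1.48-fold lower with nm23-H1 (-0.56), inside that range for nm23-H1 (-0.95 to 0.91). The transfectants differed by 0.93, inside the range of -1.17 to 1.16. The nm23-H2 difference was at least 2-fold under 7 of 8 alternatives. With the floor at the 70th percentile (66.2) it was a bound of -0.70, since the nm23-H2 signal lay under that floor. The 20 nearest measured genes around SMO had a median of -0.30 with nm23-H2 and -0.03 with nm23-H1, both relative to vector, and 0 of them were 2-fold different in either. The nearest, TNPO3 and AHCYL2, were lower than vector with nm23-H2 too (-0.28 and -0.68), and AHCYL2 differed by 1.10 between the transfectants, in the same direction as SMO. Over all genes the nm23-H2 median was -0.06.

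Of 16 other Hedgehog genes 9 were annotated, and 3 of them rose above the floor on any array. GLI3, a transcription factor at the end of the pathway, gave 107, 80.9 and 48.8 signal units for vector, nm23-H1 and nm23-H2, in the same order as SMO. Relative to vector it was 2.20-fold lower with nm23-H2 (-1.14) and 1.33-fold lower with nm23-H1 (-0.41). PTCH1, the receptor that holds SMO inactive, and GLI2 were above the floor on the nm23-H1 array only, with 36.2 and 30.7 signal units. The ligand genes SHH and IHH and the target GLI1 were below the floor on all 3 arrays.

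The sequences before the annotated starts of MET and SMO are shown because these were the members with 2-fold differences. Each is the 250 bases before the start in RefSeq (GRCh38.p14, plus strand), with the GC box GGGCGG in capitals, found on either strand. The MET sequence is chr7:116671946-116672195, and the SMO sequence is chr7:129188383-129188632.
MET: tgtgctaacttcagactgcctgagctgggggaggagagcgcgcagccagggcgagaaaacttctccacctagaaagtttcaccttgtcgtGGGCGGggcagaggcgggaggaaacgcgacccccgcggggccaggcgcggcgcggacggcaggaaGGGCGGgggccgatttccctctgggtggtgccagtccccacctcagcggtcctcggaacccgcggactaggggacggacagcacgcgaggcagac
SMO: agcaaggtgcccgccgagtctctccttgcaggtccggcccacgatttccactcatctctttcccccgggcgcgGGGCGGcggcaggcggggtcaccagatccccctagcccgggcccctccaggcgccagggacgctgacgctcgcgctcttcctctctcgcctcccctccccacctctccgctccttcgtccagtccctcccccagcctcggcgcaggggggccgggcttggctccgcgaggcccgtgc
MET had 2 matches and SMO 1. Some genes have several annotated starts, and the members had 16 such windows. The motif occurred in 13 of these (81.2%), belonging to 8 of the 10 members, and in 42.6% of all 35116 windows in the table. LPAR1 and L1CAM had more than 1 window each, LPAR1 the most. The windows of a gene can overlap and hold the same match, as those of L1CAM did. The windows are thus not independent, and this share was not tested. Neither sequence held TGACTCA, an AP-1 site, or TATAAA on either strand, which occurred in 4.20% and 10.7% of all windows. G and C made up 68.4% of the MET and 73.6% of the SMO sequence, against a median of 58.0% over all windows.

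**Figure D2:**
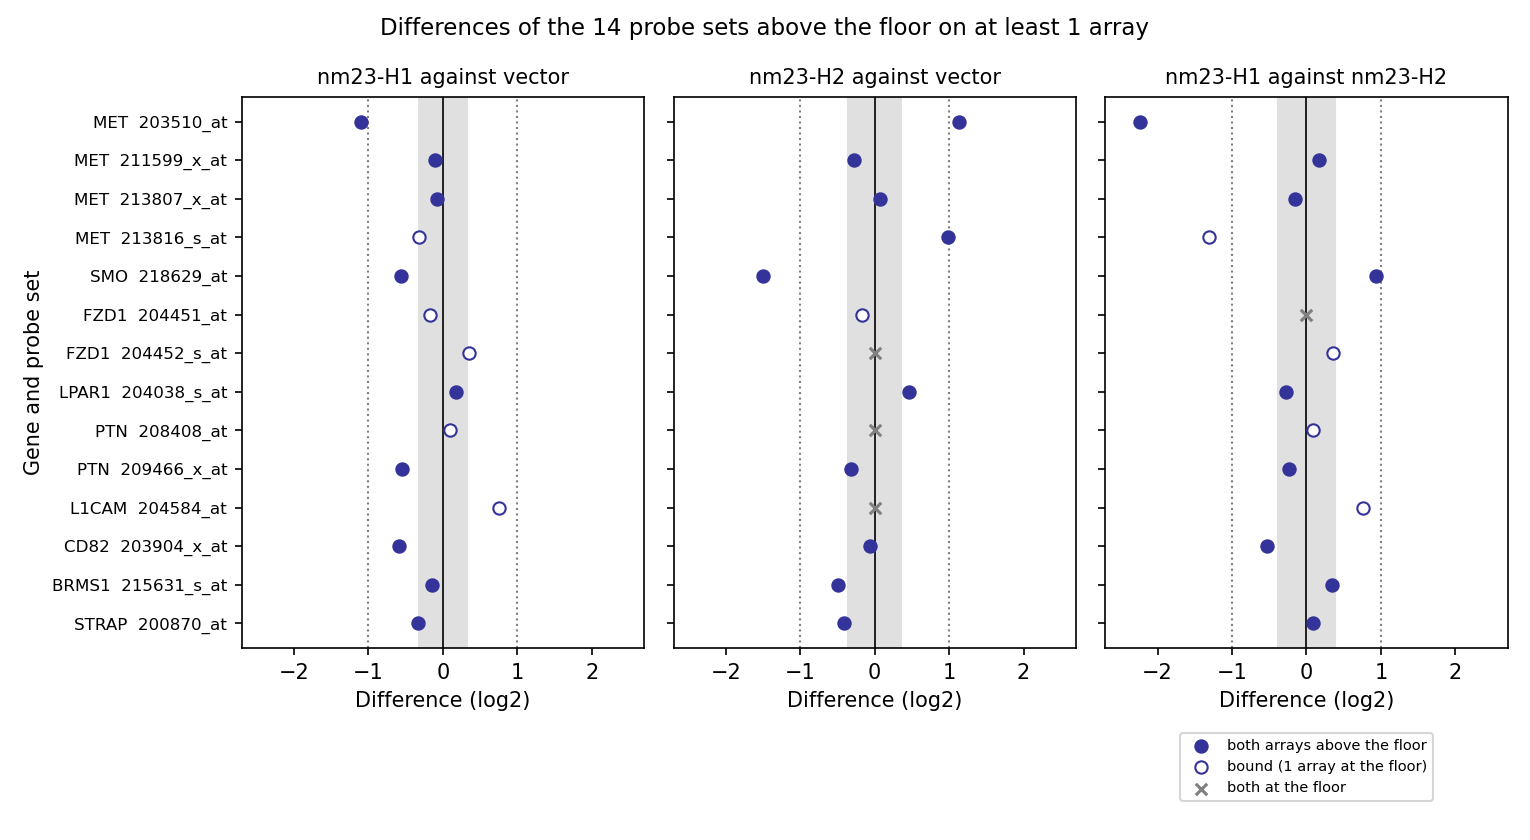
Difference (log2) of the 14 probe sets above the floor on at least 1 array, for each of the 3 comparisons. Filled points have both arrays above the floor, open points are bounds, crosses have both arrays at the floor, the grey band is 1 SD of the disagreement between probe sets, and dotted lines mark 2-fold. MET 203510_at lies at -1.10, 1.14 and -2.24, whereas the MET probe sets 211599_x_at and 213807_x_at lie within the band in every comparison.

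FZD1 encodes a Frizzled receptor for Wnt ligands and lies on chromosome 7 (91264433 to 91271326). Its 2 probe sets were near or below the floor and ordered the arrays differently. Probe set 204452_s_at gave 16.2 signal units with vector, 36.2 with nm23-H1 and 11.9 with nm23-H2, and 204451_at gave 32.0, 23.1 and 8.55. The first was at least 1.28-fold higher with nm23-H1 than with vector and the second at least 1.13-fold lower. No direction can be given for FZD1 with nm23-H1. Both probe sets were below the floor with nm23-H2.

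In the list of other Wnt pathway genes, 21 of 34 were measured. With nm23-H1, 2 were at least 2-fold higher than with vector and 0 lower. With nm23-H2, 1 was at least 2-fold higher and 2 lower. WNT4, a Wnt ligand, gave 44.9, 95.9 and 111 signal units with vector, nm23-H1 and nm23-H2, 2.13-fold and 2.47-fold above vector. DKK1, a secreted Wnt inhibitor, gave 257, 524 and 420, 2.04-fold and 1.64-fold above vector. Among the other receptors, FZD4 fell under the floor with nm23-H2, at least 2.06-fold below vector (58.3 signal units with vector), as did FZD7 (at least 2.11-fold, 59.9 with vector), whose second probe set gave -0.35. With nm23-H1 they were at -0.14 and 0.07. Over the 21 genes the median was -0.05 for nm23-H1 and -0.18 for nm23-H2 against vector.

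LPAR1 encodes a G protein-coupled receptor for lysophosphatidic acid, a lipid that stimulates migration, and lies on chromosome 9 (110873263 to 111038998). Of its 3 probe sets, 1 was above the floor, with 73.3 signal units for vector, 83.2 for nm23-H1 and 101 for nm23-H2. It was 1.13-fold higher with nm23-H1 (0.18) and 1.38-fold higher with nm23-H2 (0.46) than with vector. Both lay inside the middle 95% of probe sets of like signal (-0.79 to 1.06 and -1.17 to 1.3), and the first was under the probe set SD. The remaining 2 probe sets gave between 9.25 and 18.3 signal units.

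Of 16 other genes of lysophosphatidic acid signalling, 13 were measured. With nm23-H1, 1 was at least 2-fold higher than with vector and 0 lower, and with nm23-H2, 0 were higher and 2 lower. PLPP1, a phosphatase that degrades the lipid, gave 54.0 signal units with vector, 166 with nm23-H1 and 76.3 with nm23-H2. Its second probe set gave 44.1, 95.7 and 30.9. Both were more than 2-fold higher with nm23-H1 than with vector (1.62 and 1.12), while with nm23-H2 they went opposite ways (0.50 and -0.51). PLPP3, another such phosphatase, was 2.20-fold lower with nm23-H2 (33.2 against 72.9 signal units), and GNAI2, an inhibitory G protein subunit, 2.33-fold lower (49.3 against 115). The receptor genes LPAR2 and LPAR3 differed from vector by 0.25 or less in either direction, with 89.1 and 48.7 signal units on the vector array.

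PTN encodes pleiotrophin, a secreted heparin-binding growth factor, and lies on chromosome 7 (137227341 to 137343733). The probe set that does not carry the _x_at suffix, 208408_at, gave 26.5 signal units with vector, 30.2 with nm23-H1 and 3.0 with nm23-H2. Only the nm23-H1 value was above the floor, and it exceeded it by 1.07-fold. The brightest PTN probe set, 209466_x_at, gave 97.3, 66.7 and 78.3 signal units, lower than vector by 1.46-fold with nm23-H1 (-0.55) and by 1.24-fold with nm23-H2 (-0.31). Both were inside the middle 95% of probe sets of like signal. The other 2 were below the floor on all arrays. The order of the arrays differed between probe sets, and no direction can be given for PTN.

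Among 8 genes of pleiotrophin's sister ligand and receptors, 6 were measured and 0 were 2-fold different from vector on either array. PTPRZ1, a receptor phosphatase that binds pleiotrophin, gave 77.7, 104 and 45.2 signal units for vector, nm23-H1 and nm23-H2. It was 2.31-fold higher with nm23-H1 than with nm23-H2, and 0.43 and -0.78 against vector. MDK, which encodes the sister ligand midkine, gave 56.5, 63.9 and 74.2.

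L1CAM encodes a neural-type adhesion molecule that many invasive carcinomas carry at their surface, and lies on the X chromosome (153861514 to 153886173). Probe set 204584_at gave 11.3 signal units with vector, 47.9 with nm23-H1 and 10.8 with nm23-H2. Probe set 204585_s_at gave 4.87, 16.8 and 6.08. In both the nm23-H1 array was the highest, but only 1 of the 6 values was above the floor. The first was at least 1.69-fold higher with nm23-H1 than with vector (0.76) or nm23-H2. The size of this difference depended on the floor. With the floor at the 25th percentile it was 2.08, and at the 70th it was 0, while adding 16 to every signal gave 1.23. Of 12 other genes of the L1 family and its partners 8 were measured, and 0 were 2-fold different in any comparison. Of the other L1 family genes, CHL1 and NFASC were below the floor on all arrays, and NRCAM was above it by a probe set other than the one counted.

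CD82 encodes a tetraspanin, a membrane protein that organises integrins and growth factor receptors, and lies on chromosome 11 (44564409 to 44620358). Its single probe set, which carries the _x_at suffix, gave 111 signal units with vector, 73.5 with nm23-H1 and 106 with nm23-H2. The nm23-H1 array was the lowest, 1.5-fold below vector (-0.59) and 1.45-fold below nm23-H2 (-0.53), inside the middle 95% of probe sets of like signal (-0.79 to 0.97 and -1.23 to 1.23). The difference with nm23-H2 was -0.06, within the probe set SD, and it was 0.27 with the values as deposited.

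Of 22 other tetraspanins, 18 were measured. With nm23-H1, 0 were 2-fold different from vector, and with nm23-H2, 1 was higher and 1 lower. CD151, a partner of laminin-binding integrins, gave 187, 307 and 461 signal units for vector, nm23-H1 and nm23-H2, 2.47-fold higher with nm23-H2. TSPAN15, which guides the protease ADAM10, was at least 2.38-fold lower with nm23-H2 (67.3 signal units with vector). TSPAN6 was 2.47-fold higher with nm23-H1 than with nm23-H2 (215 against 87.1 signal units), and its second probe set gave 1.19. The family's median was 0.07 for nm23-H1 and -0.30 for nm23-H2 against vector.

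BRMS1 encodes a subunit of the SIN3 histone deacetylase complex, which represses transcription, and lies on chromosome 11 (66337339 to 66345104). Its 1 probe set gave 794 signal units with vector, 716 with nm23-H1 and 564 with nm23-H2. The differences from vector were -0.15, under the probe set SD, and -0.49, and the transfectants differed by 0.35. All 3 lay inside the middle 95% of probe sets of like signal. Of 16 other genes of the complex 11 were measured. By the probe set counted, none was 2-fold different from vector with nm23-H1. ING1, at 0.64 by that probe set, gave -1.23 by another. SAP30 was at least 2.34-fold lower with nm23-H2 (66.4 signal units with vector), with 0 to -0.34 by its other 3 probe sets. HDAC2, a deacetylase of the complex, gave 66.9, 49.4 and 109 signal units for vector, nm23-H1 and nm23-H2, 2.20-fold lower with nm23-H1 than with nm23-H2.

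STRAP encodes a WD-repeat protein that binds TGF-beta receptors and SMAD7 as well as Nm23-H1, and lies on chromosome 12 (15882387 to 15903478). Its 1 probe set gave 978 signal units with vector, 780 with nm23-H1 and 733 with nm23-H2. It was 1.25-fold lower with nm23-H1 (-0.33) and 1.33-fold lower with nm23-H2 (-0.42), both inside the middle 95% of probe sets of like signal (-1.0 to 0.82 and -1.0 to 1.19). The transfectants differed by 0.09. Of 16 of its partners, 11 were measured and 0 were 2-fold different with nm23-H1. SMAD3, which carries the TGF-beta signal to the nucleus, gave 134, 247 and 348 signal units for vector, nm23-H1 and nm23-H2, 2.59-fold higher with nm23-H2. Its other 3 probe sets ranged from -0.10 to 1.06 in that comparison.

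KISS1 encodes the precursor of the kisspeptins, secreted peptides that act through a G protein-coupled receptor, and lies on chromosome 1 (204190341 to 204196491). Its 1 probe set gave 2.55 signal units with vector, 3.69 with nm23-H1 and 3.70 with nm23-H2. All 3 values were below the floor, and no difference can be given.

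Of 22 further genes listed as metastasis suppressors, 17 were measured. With nm23-H1, 1 was at least 2-fold higher and 2 lower than with vector, and with nm23-H2, 1 was higher and 1 lower. TXNIP, which binds thioredoxin and restrains glucose uptake, gave 317 signal units with vector, 692 with nm23-H1 and 128 with nm23-H2 by 201009_s_at. The nm23-H1 array was the highest and the nm23-H2 array the lowest, the reverse of MET. All 3 TXNIP probe sets had that order, with 1.13 to 1.46 for nm23-H1 against vector, -2.13 to -1.31 for nm23-H2 against vector and 2.44 to 3.59 between the transfectants. The ends -2.13 and 3.59 are bounds, from 201008_s_at, which was below the floor with nm23-H2 (16.9 signal units). GSN, the actin-severing protein gelsolin, was 2.10-fold lower with nm23-H1 (163 against 342 signal units), with its second probe set at 0. TIMP1, an inhibitor of matrix metalloproteinases, was 2.0-fold lower (228 against 457). The count of 2 lower genes became 0 with the values as deposited or 16 added, and 1 with a common median or probe sets averaged. TIMP3, of the same list, was at 0.28 with nm23-H2 against vector by the probe set counted and at 0.73 to 2.48 by its others. NDRG1, a stress-responsive suppressor, gave 609 signal units with vector, 687 with nm23-H1 and 2813 with nm23-H2. MAP2K4, a kinase upstream of JNK, was 2.78-fold higher with nm23-H1 than with nm23-H2 (83.7 against 30.1 signal units), with 0.90 by its second probe set.

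Of 20 other genes reported as lower with Nm23-H1 or as its binding partners, 12 were measured. With nm23-H1, 1 was 2-fold higher than with vector and 0 lower, and with nm23-H2, 1 was higher and 1 lower. DNM1, a dynamin of vesicle uptake, was 2.15-fold higher with nm23-H1 and with nm23-H2 (248 signal units on both, 115 with vector), with 0 and 0.10 by its second probe set. AURKA, a mitotic kinase, was 2.21-fold lower with nm23-H2 (197 against 436 signal units), or -0.95 and 0.20 by its other probe sets.

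**Figure D3:**
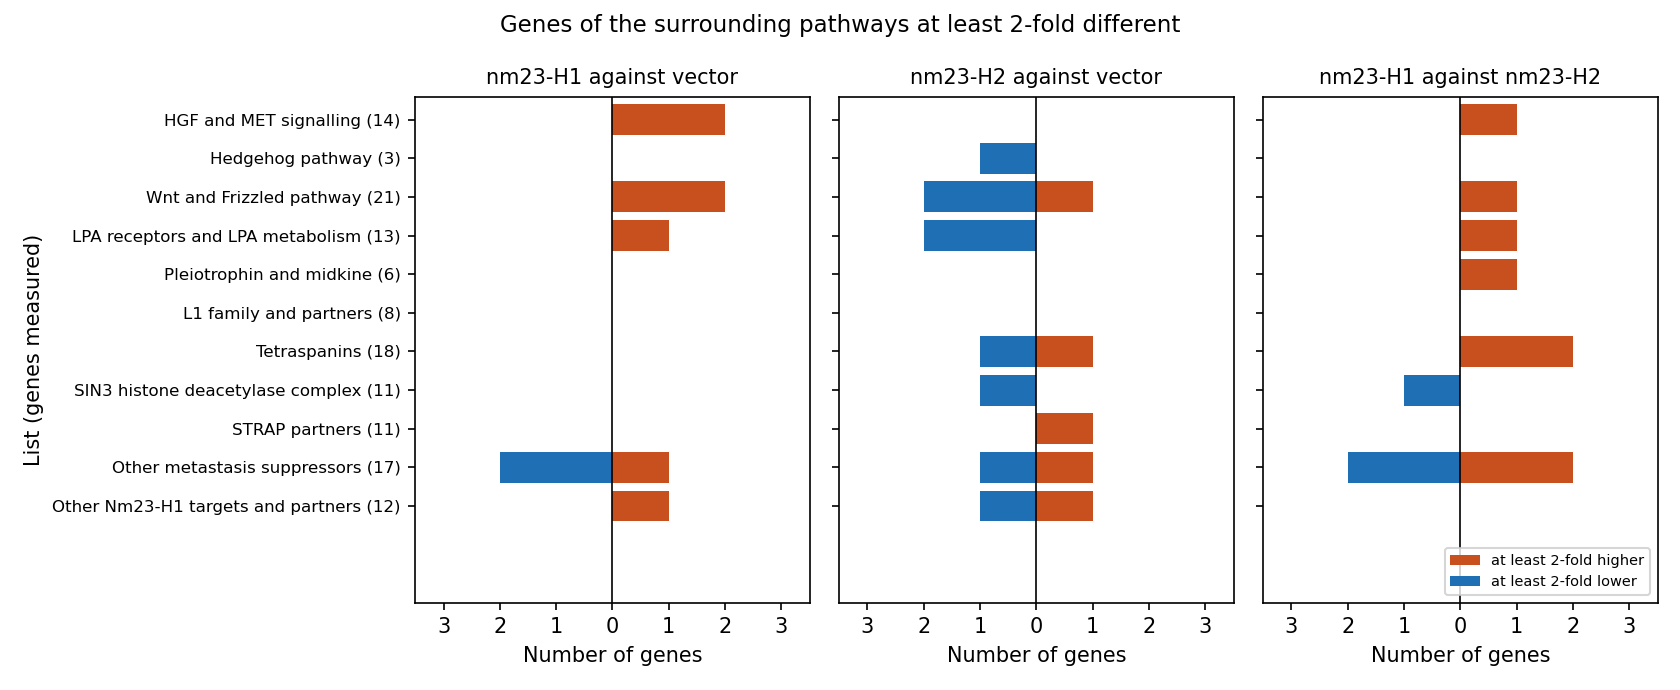
Number of genes at least 2-fold higher (right of 0) and at least 2-fold lower (left of 0) in 11 lists of genes around the members, for each comparison, with the number of genes measured in parentheses. No list had more than 2 genes in either direction, and the L1 family list had 0 in every comparison.

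**Figure D4:**
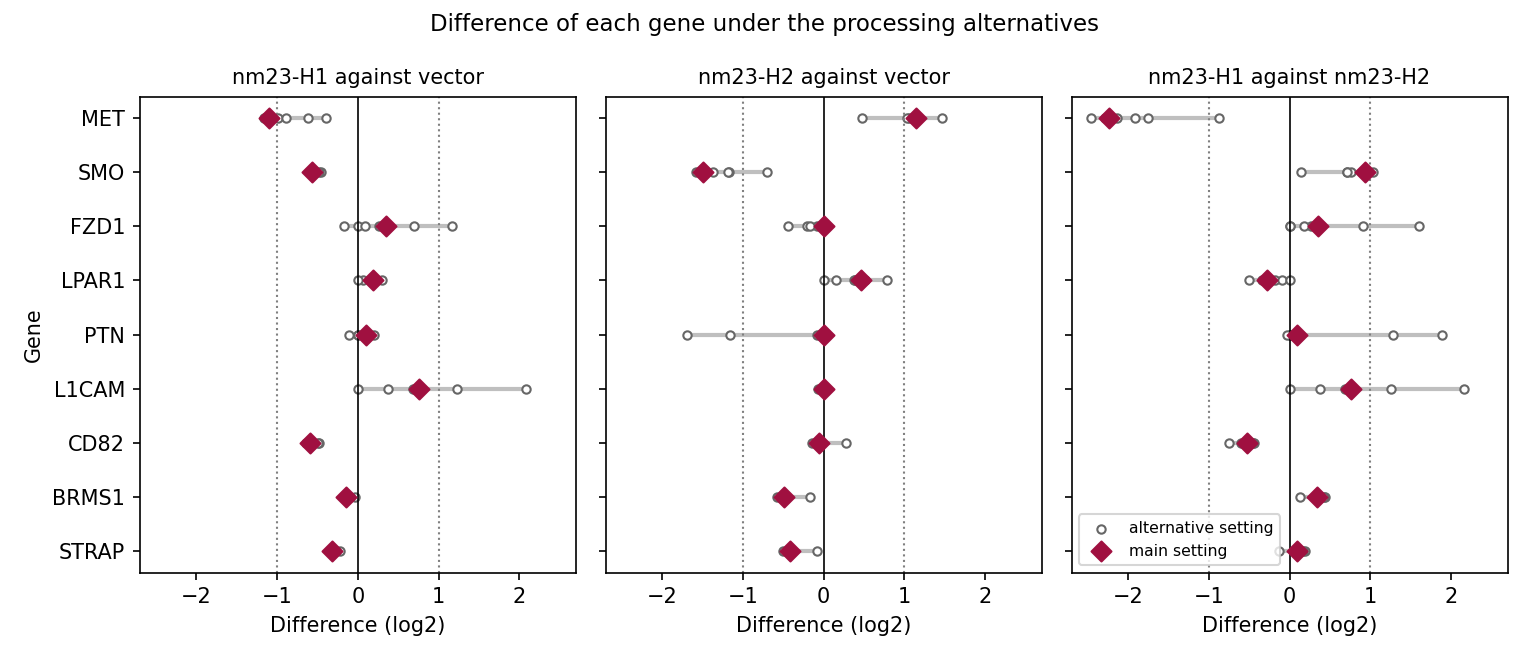
Difference (log2) of the 9 measured members in each comparison. Diamonds are the settings of the text and open circles the alternatives, which change the scaling, the floor or the probe sets. MET kept its direction in all 3 comparisons, reaching from -1.17 to -0.40 for nm23-H1 against vector, whereas L1CAM reached from 0 to 2.08.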

How the data were processed

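Each of 3 CAL 27 transfectants was measured on 1 array. The authors deposited a linear signal intensity for each probe set, from MAS5 per the submitters' processing notes; the scaling target is not given in the sources used here, and no detection calls were used. Depth has no meaning here, and the number of arrays limits the precision. Each array was scaled so that its mean between the 2nd and 98th percentiles met the geometric mean of the 3 (factors 1.11 for vector, 1.03 for nm23-H1, 0.881 for nm23-H2). Values below the pooled median (28.3) were set to it, and log2 was taken. Of the probe sets, 19071 had 1 symbol in GEO's platform annotation, 1043 several and 2169 none; symbols were updated to RefSeq through Entrez IDs. For counts, 1 probe set per gene was used, the brightest among those without the _x_at suffix, or among all where none lacked it; all 20 probe sets of the members are given. Probe set SD was that of the difference between a gene's brightest 2 probe sets, divided by the square root of 2. No test was possible with 1 array per group. Alternatives were no scaling, a common median, quantile normalization, a floor at the 25th or at the 70th percentile, 16 added to each signal, the mean of probe sets, plain _at probe sets and a 1.5-fold threshold. Named genes outside the members were up to 3 per list and comparison with the largest difference of at least 2-fold, and partners of a member; the neighbours of MET and SMO were chosen after their values were seen. The members and lists were chosen with earlier results of these data known. The steps were tested on simulated data. Python 3.11.15, numpy 2.4.6, pandas 2.3.3 and matplotlib 3.10.9 were used.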

Additional observations from a re-analysis of the deposited data

Results flagged for a closer look

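MET was picked out because the nm23-H1 and nm23-H2 arrays lay at least 2-fold on opposite sides of the vector array by probe set 203510_at, with a difference of -2.24 (log2) for nm23-H1 against nm23-H2. The difference was not tested, since each construct had 1 array, and 2 of the 4 MET probe sets did not show it. Probe set 213816_s_at had the same order of arrays, but against vector gave -0.32 (a bound) with nm23-H1 and 0.99 with nm23-H2.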

How the results depend on the processing

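The count of members at least 2-fold different for nm23-H1 against vector was 1 and became 0 under 3 alternatives (values as deposited, floor at the 70th percentile, probe sets averaged) and 3 under 2 (floor at the 25th percentile, threshold of 1.5). For nm23-H2 against vector it was 2 and became 1 under that higher floor or with probe sets averaged, and 3 under the lower floor or with 16 added. Between the transfectants it was 1 and became 2 with a common median, 4 under the lower floor, 3 with 16 added or a threshold of 1.5, and 0 with probe sets averaged. The members measured were 9, but 6 under the higher floor or with plain _at probe sets, and 8 with quantile normalization. Under the higher floor the differences from vector of MET with nm23-H1 and of SMO with nm23-H2 were bounds. Under the lower floor 11.3%, 15.0% and 16.1% of all genes passed in the 3 comparisons, with 16 added 4.16%, 7.42% and 7.31%, under the higher floor 2.60%, 6.03% and 6.05%, and with probe sets averaged 2.74%, 5.26% and 5.42%. With a common median 8.18% passed between the transfectants, and with the values as deposited 3.82% passed for nm23-H1 against vector. With 16 added, the 1 member counted for nm23-H1 against vector was L1CAM, on the higher side, in place of MET. At 1.5-fold, 16.1%, 24.8% and 26.7% of all genes passed in the 3 comparisons. The members' median for nm23-H2 against vector was 0 and became -0.42 under the lower floor. At the settings of the text 3 of the 9 members, FZD1, PTN and L1CAM, had both arrays at the floor and so a difference of 0. Under the lower floor they were at -0.44, -1.69 and -0.07. Of 210 recomputed differences of single members, 184 stayed within the probe set SD of the value given and 26 moved by more, and no 2-fold difference changed direction. Of 378 recomputed list counts, 266 stayed within 1.5 times and 112 did not. With the values as deposited the median of all genes for nm23-H2 against vector was 0.17 instead of -0.06, and genes at least 2-fold higher and lower numbered 630 and 108 instead of 283 and 290. No paired analysis was possible because each group had 1 array.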
